A study of Arabidopsis thaliana with 12 samples.

Results

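The genes described here carry light and temperature signals into the decision of a seed to germinate. They were the photoreceptor genes PHYA and PHYB, the transcription factor genes PIF1, PIF3, PIF4, PIF5 and HY5, the ubiquitin ligase gene COP1 and the zinc finger gene SOM. They were chosen by their gene identifiers in the deposited expression table, 9 of 23337 genes, and all 9 passed the filter on low counts. The study set wild-type (WT) seeds of Arabidopsis thaliana against seeds of atcyp18-1, a mutant of CYP18-1, which encodes a cyclophilin, an enzyme that helps proteins fold. All seeds were stratified for 2 days at 4 °C and sampled 1 day after imbibition, and in each genotype one group was kept at the normal temperature while the other was exposed to 45 °C for 2 h. These 4 groups (normal or heat, WT or atcyp18-1) held 3 RNA-seq libraries each, with 7468922 to 10506481 reads per library assigned to genes. The labels state neither the light given to the seeds nor the kind of mutant allele, and they do not say whether libraries of 1 group had separate parent plants or seed lots, so a p-value here reflects only variation among these samples, possibly technical.

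Phytochromes are photoreceptors that red light switches on and far-red light or warmth switches off. In an imbibed seed kept in the dark, the factor PIF1 represses germination. Active phytochrome binds PIF proteins and has them degraded, which lifts the repression. PIF1 acts in part through SOM, whose product shifts hormone metabolism towards abscisic acid and away from gibberellin, and SOM has also been linked to the block of germination at high temperature. COP1 works on the opposite arm of the pathway: in the dark it marks HY5, a factor that promotes light-type growth, for degradation. These are mostly controls on proteins, which RNA levels do not show.

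Heat lowered the RNA of both phytochrome genes in both genotypes. In WT seeds 5 of the 9 genes changed with heat, PHYA, PHYB and PIF1 downwards and COP1 and SOM upwards, where 50.2% of all tested genes changed, 25.0% upwards and 25.1% downwards. In atcyp18-1 seeds 4 changed, PHYA, PHYB and PIF3 downwards and COP1 upwards, against 46.3% of all tested genes, 22.9% upwards and 23.4% downwards. Between the genotypes, with TMM scaling, without heat 5 genes were higher in the mutant (PIF3, PIF4, PIF5, HY5 and SOM), where 23.4% of tested genes differed, 11.2% higher and 12.2% lower, and in heat 4 were higher (PHYB, PIF4, PIF5 and HY5), where 16.7% differed, 8.17% higher and 8.49% lower. The median log2 difference of the 9 genes was 0.33 without heat and 0.27 in heat, beside 0.001 and -0.02 over all tested genes. Calls rest on edgeR's quasi-likelihood test, with a Benjamini-Hochberg adjusted p under 0.05 over the 17296 tested genes. CPM, read counts scaled to a common library size, use the TMM method, so a change is relative to the typical gene. With plain library sizes the median of all genes shifted by -0.21 (heat, WT), -0.23 (heat, mutant), -0.14 (genotype, normal) and -0.16 (genotype, heat) on the log2 scale. The share of all called genes that were higher then went from 49.9% to 27.5%, 49.5% to 22.9%, 47.9% to 18.4% and 49.0% to 14.2% in the same order. For the 9 genes, plain library sizes gave 1 rise (SOM) and 5 falls (PHYA, PHYB, PIF1, PIF3 and PIF5) with heat in WT, and 0 rises and 5 falls (PHYA, PHYB, PIF1, PIF3 and SOM) in the mutant. Between the genotypes they gave 3 genes higher (PIF4, PIF5 and SOM) and 1 lower (COP1) without heat, and 3 higher (PIF4, PIF5 and HY5) and 2 lower (PHYA and COP1) in heat. The falls of PHYA and PHYB with heat in both genotypes were thus called under both scalings. So were the fall of PIF1 and the rise of SOM in WT heat, and the fall of PIF3 in mutant heat. Between the genotypes, PIF4 and PIF5 in both conditions, SOM without heat and HY5 in heat were called higher in the mutant under both. Shares of all tested genes called higher or lower with plain library sizes are not given here. The counts of the 9 genes under that scaling therefore cannot be weighed against them. Over all genes, the calls between unheated genotypes numbered 4047, and 2457 without the third unheated mutant library. Between heated genotypes they numbered 2881, and 1821 without the second heated WT library, 1765 without the first and 1689 without the third heated mutant library.

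**Figure D1:**
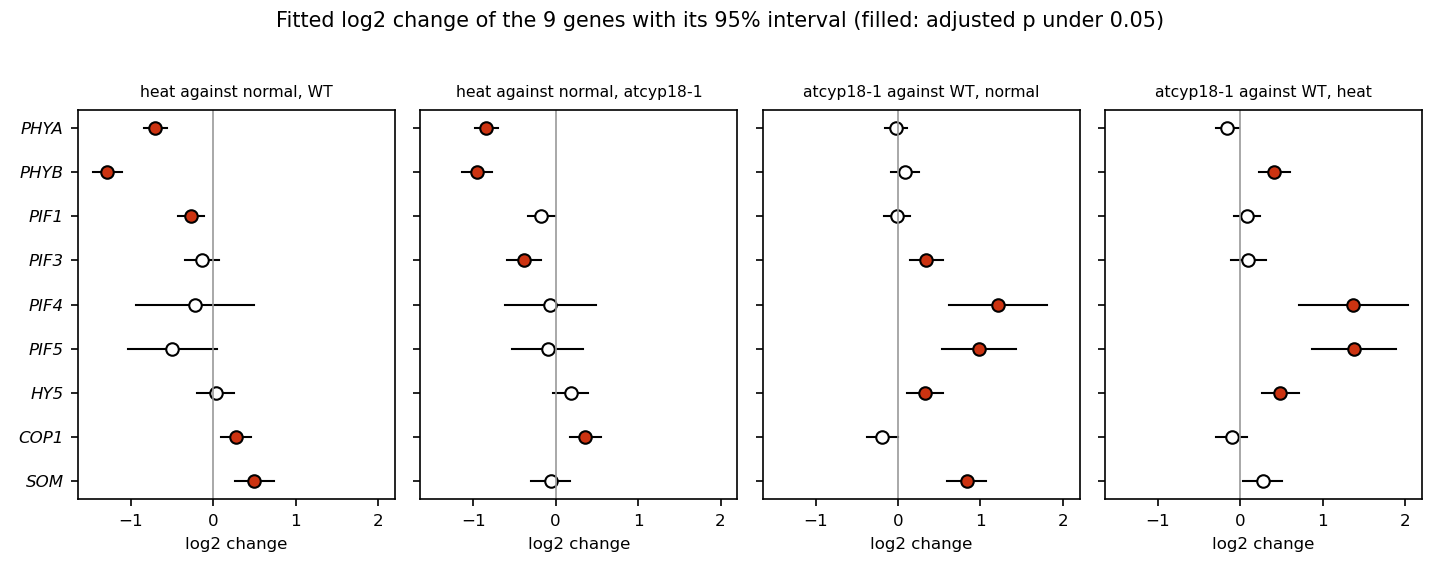
Fitted log2 change (x axis) of each of the 9 genes (y axis) in the 4 comparisons, with its 95% interval as a line; filled points passed an adjusted p under 0.05. PHYA and PHYB lie below 0 in both heat panels, and PIF4 and PIF5 lie between 0.98 and 1.38 in both genotype panels.

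The targeted gene CYP18-1 was lower in the mutant by a log2 difference of -3.51 ± 0.17 without heat and -2.91 ± 0.16 in heat (SE, n = 3 libraries per group; edgeR adjusted p = 2.33e-11 and 3.14e-10). All 5 seed markers (the storage protein genes CRA1, CRC and SESA1 and the oil body genes OLEO1 and OLEO2) and all 3 endosperm markers (EPR1, MAN7 and EXPA2) were read in every group, none of them at 0. The summed level of the seed markers ran from 1600 to 2699 CPM in WT normal, 5978 to 7013 in atcyp18-1 normal, 1858 to 3478 in WT heat and 5064 to 8012 in atcyp18-1 heat. It was thus higher in every mutant library than in any WT library. CRA1 and CRC had the highest levels in this sum in every group. Called higher in the mutant were 5 of 5 seed markers without heat and 3 of 5 in heat. OLEO1 and OLEO2 did not pass in heat (edgeR adjusted p = 0.151 and 0.0517), where OLEO1 overlapped (244 to 448 CPM in WT, 384 to 560 in the mutant). The summed endosperm markers ran from 550 to 625 CPM in WT normal, 618 to 672 in atcyp18-1 normal, 486 to 543 in WT heat and 487 to 546 in atcyp18-1 heat, and 1 of 3, MAN7, was higher in the mutant in both conditions. With heat, 3 of 5 seed markers rose in WT and 1 of 5 in the mutant, and of the endosperm markers EPR1 rose while MAN7 and EXPA2 fell in both genotypes. The part of these shifts in the heat and genotype results below was not tested, and in bulk seeds fewer cells of a type and less RNA per cell cannot be told apart.

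PHYA (AT1G09570, chr1:3095160-3100819) encodes the phytochrome that responds to very dim light and to far-red light. Its level was 445, 406 and 458 CPM in the WT normal libraries and 267, 273 and 264 CPM in WT heat. In atcyp18-1 it was 417, 446 and 427 CPM without heat and 240.2, 244 and 236 CPM in heat. Every heated library lay below every unheated one, and the spread within the heated groups was small. The change was -0.70 ± 0.07 in WT (SE, log2; edgeR adjusted p = 1.64e-08) and -0.84 ± 0.07 in the mutant (adjusted p = 1.36e-09). The genotypes overlapped without heat, and in heat the mutant lay below WT in every library without passing the test (-0.16 ± 0.07, edgeR adjusted p = 0.105), while plain library sizes called it lower (-0.32, adjusted p = 0.00342).

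PHYB (AT2G18790, chr2:8139756-8144461) encodes the phytochrome that carries the red and far-red reversible control of germination and that also senses warmth. It read 62.8, 66.3 and 69.4 CPM in WT normal and fell to 26.1, 28.2 and 27.2 CPM in WT heat. The mutant libraries gave 72.7, 71.3 and 66.8 CPM without heat and 34.7, 40.8 and 33.1 CPM in heat. Heated and unheated groups were far apart, and the 3 heated mutant libraries were above the 3 heated WT libraries. PHYB fell by 1.29 ± 0.09 on the log2 scale in WT, 2.44-fold lower (edgeR adjusted p = 1.48e-10), and by 0.96 ± 0.09 in the mutant, 1.94-fold lower (adjusted p = 1.22e-08). In heat it was higher in the mutant than in WT by 0.42 ± 0.09 (edgeR adjusted p = 0.00417), a call that was lost with plain library sizes (0.26, adjusted p = 0.0726). Without heat the genotypes differed by 0.09 ± 0.08 and overlapped (adjusted p = 0.473). The difference between the heat changes of the genotypes, 0.33 (95% interval 0.07 to 0.58), did not pass the adjustment (edgeR adjusted p = 0.181).

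**Figure D2:**
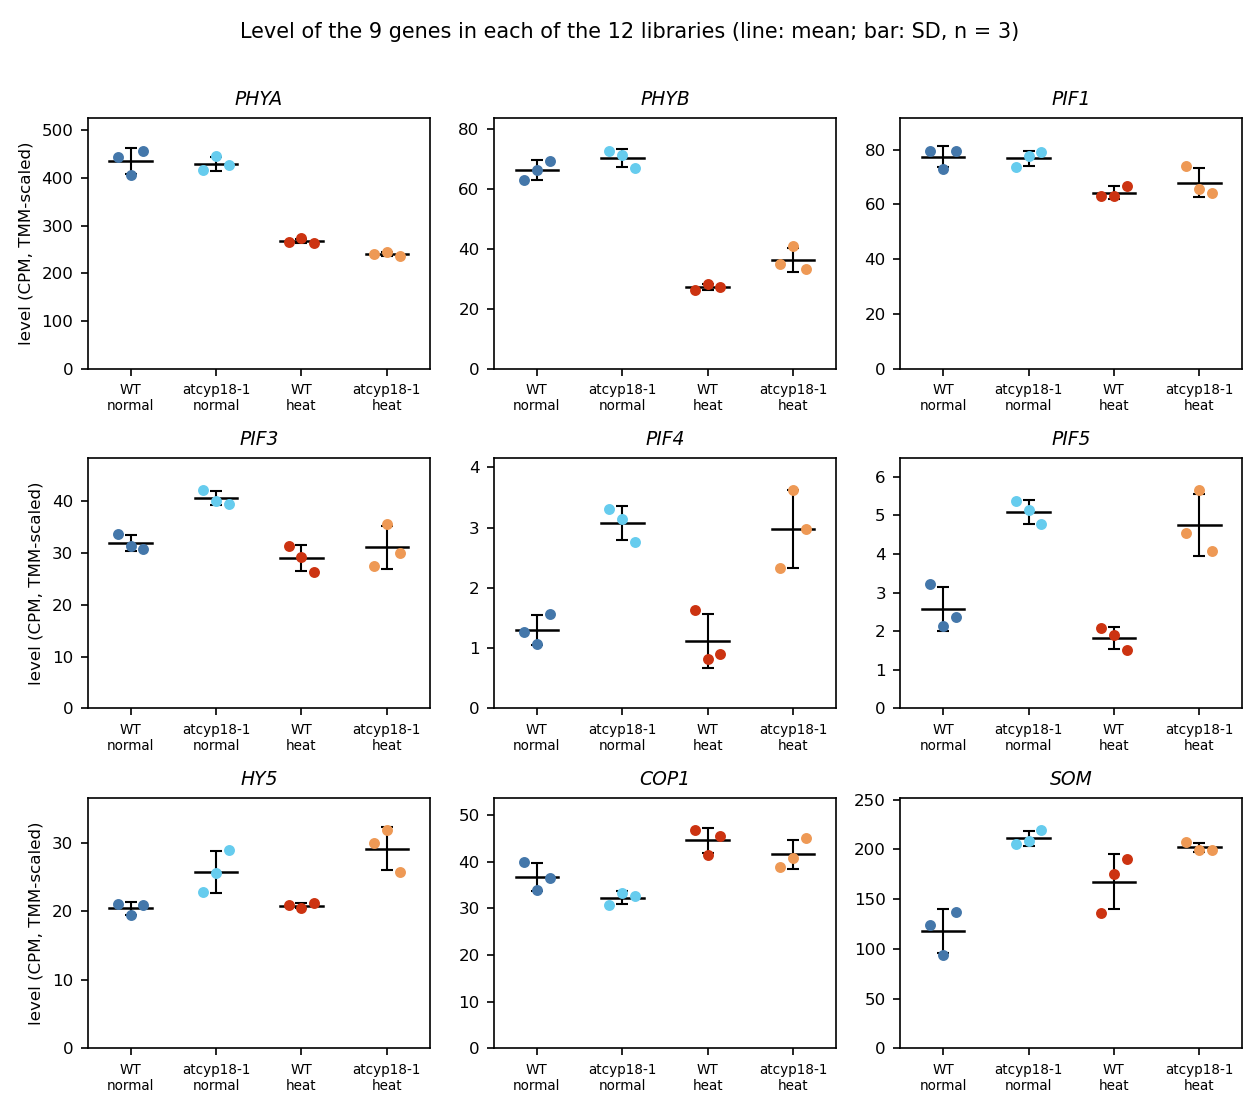
Level of each gene in CPM (y axis, from 0) in the 12 libraries, 1 point per library, by group (x axis); horizontal lines are means and bars SD over 3 libraries. PHYA and PHYB drop in heat in both genotypes, while PIF4 and PIF5 are higher in all 6 mutant libraries than in all 6 WT libraries.

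The authors' deposited splicing tables held rows for PHYA, PIF1 and COP1 among these genes. Of 15 rows, 8 belonged to heat in WT, 6 to heat in the mutant, 0 to the unheated genotypes and 1 to the heated genotypes. By gene, retention was listed for PHYA and PIF1 in both heat comparisons. Junction events were listed for PHYA and PIF1 in WT heat, PIF1 in mutant heat and COP1 between the heated genotypes. PHYB, PIF3, PIF4, PIF5, HY5 and SOM had none, and SOM has no intron in its annotated transcript. For comparison, 5.39% of the genes of the expression table were listed with intron retention in WT heat and 5.53% in mutant heat, and 1.59% and 1.44% with a junction event. Between the genotypes the shares were 1.11% (retention) and 0.613% (junction) without heat and 1.09% and 0.578% in heat. The tables give, per library, the reads of an intron divided by the average of its flanking exons, called the intron-to-exon ratio here, or the raw reads spliced across a junction. The p-values of these tables are the authors' own and unadjusted. An exact two-sided permutation test of 3 libraries against 3 cannot go below p = 0.1, and it gave that value for each of the 15 rows. The rows are those the authors marked as events, with ratios from 1.7 and authors' p up to 0.05. Separation of the groups therefore follows largely from that selection and adds no separate support.

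PHYA was listed with retention of its intron 3 (chr1:3096073-3096142, minus strand), which lies between coding exons and is common to its 6 annotated transcripts. Its 70 bases are shown because reading into them meets no stop codon in the frame of the exon before. The length is not a multiple of 3, with a remainder of 1, so the frame of the next exon would shift. Capitals mark the GT and AG at the ends of the intron (TAIR10.1, RefSeq, read 5′ to 3′).
PHYA intron 3: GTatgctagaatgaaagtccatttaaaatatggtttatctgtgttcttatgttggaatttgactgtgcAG
The intron-to-exon ratio was 0.0169, 0.0168 and 0.00932 in WT normal and 0.0489, 0.0511 and 0.0701 in WT heat. In the mutant it was 0.0146, 0.00829 and 0.0260 without heat and 0.0578, 0.0499 and 0.0578 in heat. Heated libraries were above unheated ones in both genotypes, though intron reads were few: the deposited intron signal ran from 6.69 to 32.7 per library. The authors' deposited table gave a ratio of 3.95 with p = 0.0152 for WT and 3.39 with p = 0.00702 for the mutant. The genotypes overlapped in each condition, with means of 0.0143 ± 0.0044 in WT and 0.0163 ± 0.0090 in the mutant without heat, and 0.0567 ± 0.0117 and 0.0552 ± 0.0045 in heat (SD, n = 3; exact two-sided permutation p = 0.9 for each).

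The other 4 PHYA rows were junction events in WT heat, all over the intron in the 5′ UTR (chr1:3099224-3100146, 923 bases), which the annotation gives to 2 of the 6 transcripts. One row counted this junction alone. The others added a pair of shorter introns with the same acceptor and held identical reads, so they are 1 measurement listed under 3 transcripts. Only the splice sites are shown, with the GT or AG of the intron in capitals, 6 exon bases outside and 10 further intron bases inside.
PHYA donor at 3100146: ttaaagGTacctactttc
PHYA donor at 3099936: ataaagGTtttgtaggtc
PHYA donor at 3099927: ttgtagGTctctttcgat
PHYA shared acceptor at 3099224: tctctgtgtcAGgaaaaa
The donor at 3099936 belongs to transcript 6 of the annotation, and the donor at 3099927 to none. Reads over the 923-base junction alone numbered 241, 160 and 245 in WT normal and 85, 87 and 123 in WT heat, so the groups did not overlap. The authors' deposited table gave a ratio of 2.18 with p = 0.0355. These reads were not scaled to the level of the gene, which fell over the same comparison: per read assigned to PHYA, the junction in heat stood at 0.843 of its normal level, and at 0.878 for the 3 rows that pool the donors.

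PIF1 (AT2G20180, chr2:8704024-8707009), the main PIF repressor of germination in the dark, fell slightly in heated WT seeds and was listed with retention of 4 introns in heat. Its level was 79.7, 73.0 and 79.6 CPM in WT normal and 63.1, 62.9 and 66.9 CPM in WT heat. The mutant libraries gave 73.5, 77.8 and 79.0 CPM without heat and 74.0, 65.6 and 64.2 CPM in heat. The WT groups did not overlap, whereas a heated mutant library lay within the range of the unheated ones. PIF1 fell by 0.27 ± 0.08 in WT heat (SE, log2; edgeR adjusted p = 0.0057). In the mutant the change was -0.17 ± 0.08 (edgeR adjusted p = 0.0699), which passed with plain library sizes (-0.40, adjusted p = 0.000254), with no filter on low counts (-0.24, adjusted p = 0.0333) and without the first heated mutant library (-0.24, adjusted p = 0.0271). The difference between these changes was 0.09 with a 95% interval of -0.13 to 0.32. Genotypes overlapped in both conditions, with differences of -0.01 (95% interval -0.17 to 0.14) and 0.08 (-0.08 to 0.24).

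Of the 8 introns of PIF1 transcript 2, the authors' tables listed 4 as retained in heat. Introns 5 and 6 were listed in both genotypes, and introns 4 and 8 in the mutant, where intron 8 lies in the 3′ UTR. For the WT, values of introns 4 and 8 were not analysed here, so no difference between genotypes can be drawn for them. Introns 4, 5 and 6 follow each other between coding exons, and their sequences are shown because reading into any of them from the exon before meets a TAA stop codon in frame. Capitals mark the GT and AG at the intron ends and the first stop codon in frame, at base 43 of intron 4, base 46 of intron 5 and base 13 of intron 6 (TAIR10.1, RefSeq, minus strand, read 5′ to 3′).
PIF1 intron 4, chr2:8705348-8705436: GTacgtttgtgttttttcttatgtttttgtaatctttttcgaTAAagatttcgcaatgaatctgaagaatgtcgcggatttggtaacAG
PIF1 intron 5, chr2:8705200-8705281: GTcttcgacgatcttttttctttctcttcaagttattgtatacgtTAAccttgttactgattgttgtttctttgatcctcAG
PIF1 intron 6, chr2:8705028-8705133: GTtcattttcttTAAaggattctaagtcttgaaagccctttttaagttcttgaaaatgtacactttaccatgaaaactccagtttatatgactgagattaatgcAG
These introns are short, at 89, 82 and 106 bases, near the median of 88.5 bases over the 8 introns, and 31.1 to 34.1% of their bases are G or C.

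**Figure D3:**
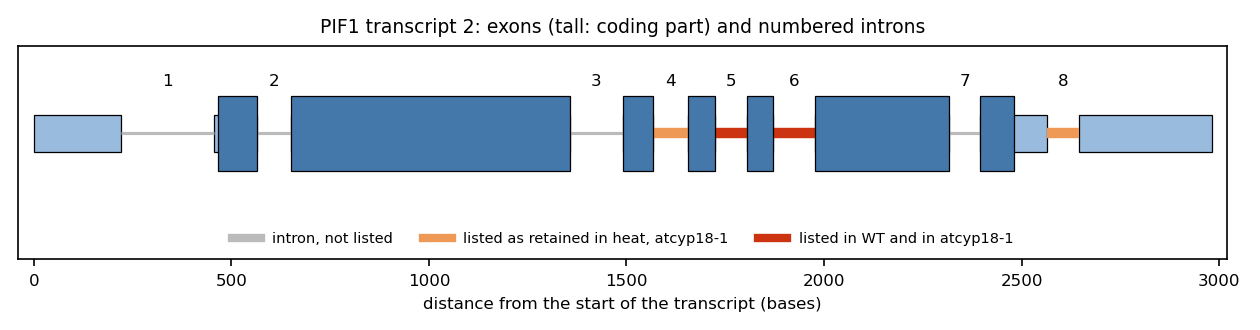
Exons and introns of PIF1 transcript 2 by distance from the transcript start in bases (x axis); tall boxes are coding, low boxes untranslated, numbers count the introns and thick coloured lines mark those listed as retained in heat. The 3 retained coding introns 4, 5 and 6 lie side by side.

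Of the listed PIF1 introns, intron 6 had the highest deposited fold in both genotypes. Its intron-to-exon ratio was 0.164, 0.104 and 0.0929 in WT normal and 0.491, 0.378 and 0.381 in WT heat. The mutant gave 0.144, 0.146 and 0.116 without heat and 0.404, 0.377 and 0.434 in heat. All 6 heated libraries lay above all 6 unheated ones. The authors' deposited table gave a ratio of 3.46 with p = 0.00482 for WT and 2.997 with p = 0.000521 for the mutant. Between the genotypes the ratio differed by 0.015 without heat and by -0.012 in heat, within the spread of the libraries (exact two-sided permutation p = 0.6 and 0.8).

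The reads spliced across intron 6 went the other way. They numbered 79, 80 and 76 in WT normal and 29, 32 and 40 in WT heat. In the mutant they numbered 55, 63 and 57 without heat and 42, 28 and 25 in heat. Neither pair of groups overlapped, and the authors' deposited table listed the loss as a 5′ splice site event of transcript 8, with a ratio of 2.29 (p = 0.00232) in WT and 1.82 (p = 0.022) in the mutant. Per read assigned to PIF1, the spliced junction in heat was at 0.585 of its normal level in WT and at 0.788 in the mutant. The first of these was below the reciprocal of 1.70, the lowest ratio listed in the tables, and the second was not.

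Intron 5 had ratios of 0.136, 0.297 and 0.130 in WT normal and 0.385, 0.344 and 0.446 in WT heat. In the mutant they were 0.237, 0.231 and 0.298 without heat and 0.454, 0.464 and 0.442 in heat. Heated libraries were above unheated ones within each genotype, with 1 unheated WT library close to the heated range. The authors' deposited table gave a ratio of 2.09 with p = 0.0448 in WT and 1.78 with p = 0.00719 in the mutant. The genotypes overlapped in each condition (exact two-sided permutation p = 0.3 without heat and 0.2 in heat). Intron 4 in the mutant went from 0.161, 0.0838 and 0.165 to 0.272, 0.200 and 0.253 in heat (1.77 and p = 0.0382 in the authors' deposited table). Intron 8 in the mutant went from 0.0305, 0.157 and 0.119 to 0.221, 0.305 and 0.362 (2.90 and p = 0.0253 in the authors' deposited table), and its first unheated library held an intron signal of 3.0, so that value rests on very few reads. The scaled intron signal taken alone, without the exons, rose without overlap for intron 6 in both genotypes and for PHYA intron 3 in WT, and overlapped between heated and unheated libraries for PIF1 introns 4, 5 and 8 and for PHYA intron 3 in the mutant.

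**Figure D4:**
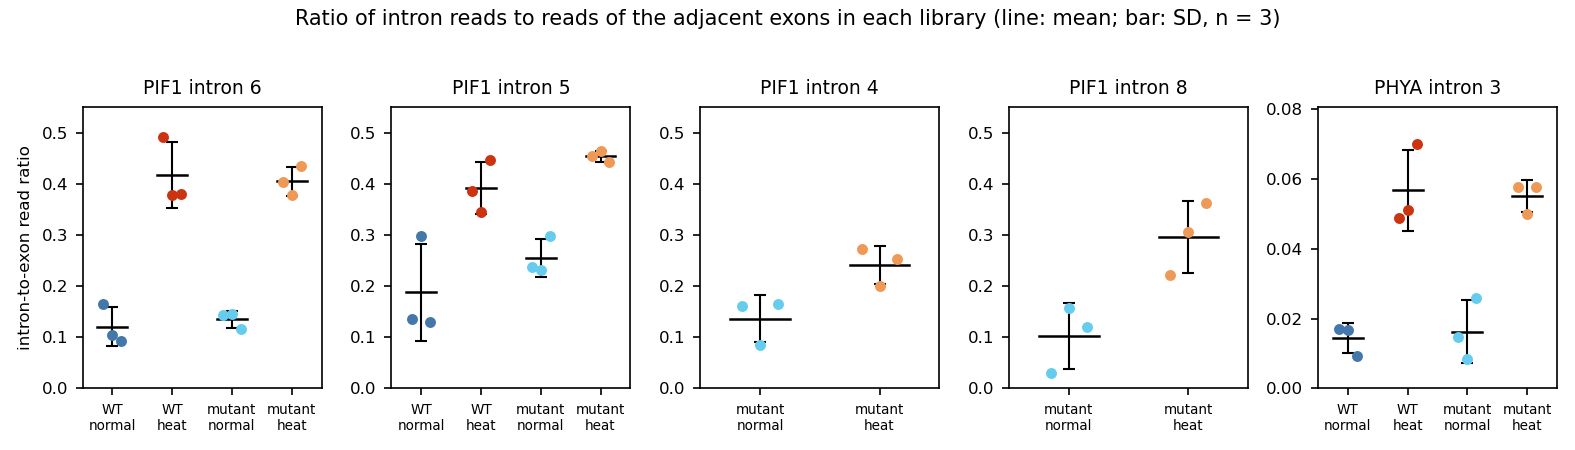
Intron-to-exon ratio (y axis, from 0; the PHYA panel has its own scale) in each library, by group (x axis), with means and SD over 3 libraries; introns 4 and 8 of PIF1 were listed for the mutant. Heated libraries lie above unheated ones in each panel, and the genotypes overlap where both are shown.

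PIF3, PIF4 and PIF5 encode relatives of PIF1 that hold back light-type growth in dark-grown seedlings, and PIF4 also drives growth at warm temperature. PIF3 (AT1G09530, chr1:3075768-3079654) read 33.7, 31.3 and 30.8 CPM in WT normal and 42.1, 40.1 and 39.6 CPM in atcyp18-1 normal. In heat it read 31.4, 29.2 and 26.4 CPM in WT and 27.5, 35.6 and 30.1 CPM in the mutant. The 3 unheated mutant libraries were above all others, and the other 3 groups overlapped. PIF3 was higher in the unheated mutant by 0.35 ± 0.10 (SE, log2; edgeR adjusted p = 0.0118; 0.21 and 0.161 with plain library sizes) and fell in the mutant with heat by 0.39 ± 0.10 (edgeR adjusted p = 0.00277). The heat change in WT, -0.14 ± 0.10, missed the threshold (edgeR adjusted p = 0.246; -0.35 and 0.0112 with plain library sizes), as did the difference between the heat changes, -0.25 (95% interval -0.54 to 0.04; edgeR adjusted p = 0.39).

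PIF4 (AT2G43010, chr2:17886101-17889087) was the lowest of the 9 genes, with 7 to 33 reads per library. It stood at 1.27, 1.07 and 1.57 CPM in WT normal and at 3.32, 3.14 and 2.77 CPM in atcyp18-1 normal. In heat it stood at 1.64, 0.828 and 0.909 CPM in WT and at 2.33, 3.62 and 2.98 CPM in the mutant. All 6 mutant libraries were above all 6 WT libraries, and heat left both genotypes within their unheated range or close to it. PIF4 was 2.32-fold higher in the unheated mutant (log2 1.21 ± 0.28; edgeR adjusted p = 0.00398) and 2.59-fold higher in the heated one (1.37 ± 0.32; adjusted p = 0.00511). Heat changes of -0.22 (95% interval -0.94 to 0.49) in WT and -0.06 (-0.61 to 0.49) in the mutant did not pass. At this depth the intervals are wide, and changes within them are compatible with the data.

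PIF5 (AT3G59060, chr3:21827905-21830837) followed the same order at 15 to 54 reads per library. Its level was 3.22, 2.14 and 2.36 CPM in WT normal, 5.38, 5.14 and 4.77 CPM in atcyp18-1 normal, 2.08, 1.89 and 1.52 CPM in WT heat and 4.55, 5.65 and 4.07 CPM in atcyp18-1 heat. Mutant and WT libraries did not overlap in either condition. The difference was 0.98 ± 0.22 without heat, 1.97-fold (edgeR adjusted p = 0.00247), and 1.38 ± 0.25 in heat, 2.60-fold (adjusted p = 0.000685). In WT the heated libraries were all below the unheated ones, but the change of -0.50 ± 0.26 did not pass (edgeR adjusted p = 0.116; -0.71 and 0.0327 with plain library sizes). The genotype calls of PIF4 and PIF5 were kept under all 22 alternatives in each condition. Over the 12 libraries the log2 levels of the pair had a Pearson r of 0.93, a description in which the genotype difference is shared by both.

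The 250 bases before the annotated gene start are shown for PIF4 and PIF5 because both genes were higher in the mutant in both conditions. Capitals mark the G-box CACGTG, the motif that PIF and HY5 proteins bind (TAIR10.1, RefSeq, read 5′ to 3′ in the direction of each gene).
PIF4 promoter, chr2:17885851-17886100, plus strand: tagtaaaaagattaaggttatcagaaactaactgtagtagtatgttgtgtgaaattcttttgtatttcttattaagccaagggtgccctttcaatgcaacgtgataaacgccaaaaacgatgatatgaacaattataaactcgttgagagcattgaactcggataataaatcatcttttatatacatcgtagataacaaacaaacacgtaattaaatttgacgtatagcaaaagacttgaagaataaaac
PIF5 promoter, chr3:21830838-21831087, minus strand: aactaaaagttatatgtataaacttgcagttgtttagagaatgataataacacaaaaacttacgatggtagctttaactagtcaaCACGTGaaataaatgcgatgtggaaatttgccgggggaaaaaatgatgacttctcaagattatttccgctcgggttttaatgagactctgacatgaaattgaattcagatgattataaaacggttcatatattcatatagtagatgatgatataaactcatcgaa
The search covered 3 motifs on both strands, from 250 bases before to 50 bases after the start. The G-box CACGTG was in PIF5 (1 copy) and PHYB (2 copies), 2 of the 9 genes, and in 7.68% of 27443 protein-coding genes. The heat shock element GAANNTTC was in COP1 (1 copy), 1 of the 9, and in 11.6% of all, and the RY motif CATGCA was in HY5 and SOM (1 copy each), 2 of the 9, and in 9.72% of all. None of the 3 patterns overlaps another in these genes, and a match describes letters in this window, not a bound site.

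HY5 (AT5G11260, chr5:3593335-3595073) encodes the factor that turns on light-responsive genes. Its level was 21.0, 19.4 and 20.9 CPM in WT normal and 20.9, 20.5 and 21.2 CPM in WT heat. The mutant gave 22.8, 25.7 and 28.9 CPM without heat and 29.9, 31.8 and 25.7 CPM in heat. WT libraries kept to a narrow range, and all 6 mutant libraries were above them. HY5 was higher in the mutant by 0.33 ± 0.10 without heat (SE, log2; edgeR adjusted p = 0.0255) and by 0.49 ± 0.11 in the heated seeds (adjusted p = 0.00395). The first call was lost without the third unheated mutant library (0.25, adjusted p = 0.139), without the second unheated mutant library (0.34, adjusted p = 0.0516), without the second unheated WT library (0.31, adjusted p = 0.0781), with plain library sizes (0.20, adjusted p = 0.208) and with no filter on low counts (0.33, adjusted p = 0.0516). Heat changes of 0.03 (95% interval -0.20 to 0.25) in WT and 0.18 (-0.04 to 0.40) in the mutant did not pass.

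COP1 (AT2G32950, chr2:13977881-13983609), whose product targets HY5 and other light-promoting factors for degradation, read 39.9, 34.0 and 36.4 CPM in WT normal and 46.7, 41.4 and 45.5 CPM in WT heat. The mutant libraries read 30.7, 33.3 and 32.7 CPM without heat and 38.9, 40.7 and 45.0 CPM in heat. Heated libraries were above unheated ones in both genotypes. The rise was 0.28 ± 0.09 in WT (SE, log2; edgeR adjusted p = 0.012) and 0.36 ± 0.09 in the mutant (adjusted p = 0.00263). Both calls were lost with plain library sizes (0.07 and 0.13, adjusted p = 0.562 and 0.259), and that of WT also without the second unheated WT library (0.22, adjusted p = 0.0618). Without heat the mutant libraries were all below the WT libraries, a difference of -0.19 ± 0.09 that did not pass (edgeR adjusted p = 0.13), and in heat the difference was -0.11 ± 0.09 (adjusted p = 0.456). With plain library sizes both were called lower in the mutant (-0.33 and -0.26, adjusted p = 0.0115 and 0.0441).

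COP1 had the sole genotype row of the 9 genes in the splicing tables, over the junction chr2:13978735-13978872 of transcript 1. Transcript 2 uses the same donor with an acceptor 4 bases upstream, and the authors' deposited table lists the row under 5′ splice sites of transcript 2. The acceptors are shown with their AG in capitals, preceded by 10 intron bases.
COP1 donor at 13978735: caaaggGTcggttcttaa
COP1 acceptor of transcript 1 at 13978872: atacttagacAGggttgt
COP1 acceptor of transcript 2 at 13978868: gttcatacttAGacaggg
The transcript 1 junction held 49, 38 and 50 reads in WT heat and 29, 17 and 32 in atcyp18-1 heat, without overlap. The authors' deposited table gave a ratio of 1.73 with p = 0.0316. The heated mutant libraries also had fewer reads of the gene as a whole, 300.7 on average against 409, and per read of the gene the junction stood at 0.774 of the WT level.

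**Figure D5:**
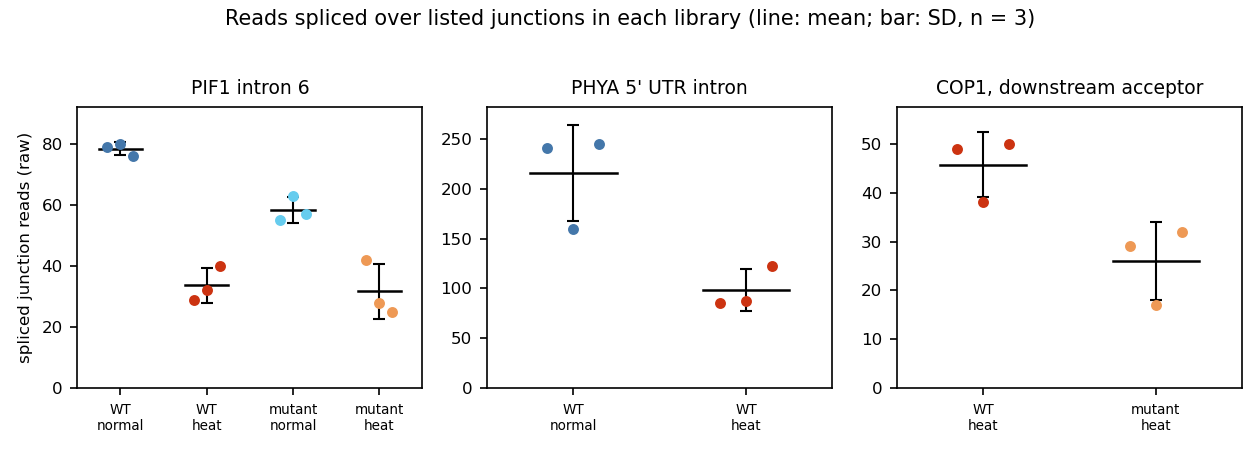
Raw reads spliced over 3 listed junctions (y axis, from 0; each panel has its own scale) in each library, by group (x axis), with means and SD over 3 libraries. The reads over PIF1 intron 6 are fewer in heat in both genotypes, those over the 5′ UTR intron of PHYA are fewer in WT heat, and those over the downstream COP1 acceptor are fewer in heated mutant than in heated WT libraries.

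SOM (AT1G03790, chr1:954290-956144), the target through which PIF1 acts on abscisic acid and gibberellin genes, differed most in the unheated seeds. Its level was 124, 94.2 and 137 CPM in WT normal and 205, 209 and 219 CPM in atcyp18-1 normal. In heat it was 137, 175 and 190.2 CPM in WT and 208, 199 and 199 CPM in the mutant. WT normal was the lowest group, the heated WT libraries lay between it and the mutant with 1 library inside the unheated WT range, and the mutant groups were close together. SOM was higher in the unheated mutant by 0.83 ± 0.11 (SE, log2), 1.78-fold (edgeR adjusted p = 2.89e-05). Heat raised it in WT by 0.50 ± 0.11 (edgeR adjusted p = 0.000959) and gave -0.06 (95% interval -0.30 to 0.17) in the mutant, which did not pass, whereas plain library sizes called a fall there (-0.29, adjusted p = 0.0286). In heat the mutant was above WT in all libraries by 0.27 ± 0.11, short of the threshold (edgeR adjusted p = 0.103; 0.0374 without the second unheated WT library and 0.0358 without the third heated WT library). The heat change of the mutant minus that of WT was -0.56 (95% interval -0.89 to -0.23) and did not pass in edgeR (adjusted p = 0.0879), while DESeq2 called it (adjusted p = 0.0416), as did edgeR without the first heated WT library (-0.69, adjusted p = 0.0227) and with the replicate number as a block (-0.56, adjusted p = 0.0477).

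For the difference between the genotypes' heat changes, edgeR called 0 of the 9 genes, against 1.08% of all tested genes, 0.630% higher and 0.451% lower. That share rests on 187 genes, a number that ran from 12 to 314 when single libraries were left out, with each of the 12 moving it by over 1.5 times, and reached 323 with the replicate block. At an unadjusted edgeR p under 0.05 there were 2, PHYB and SOM, DESeq2 called 1 and limma 0. Shares of all tested genes at these other settings are not given here, so these counts cannot be weighed. Libraries of the compared groups did not overlap for 5 of the 9 genes with heat in WT, 4 with heat in the mutant, 6 between genotypes without heat and 6 in heat, where 56.0%, 54.6%, 40.1% and 32.6% of all tested genes did not overlap. The heat and genotype comparisons share libraries, so their values are set side by side without a test of likeness.

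Per kilobase of exon in WT normal, PHYA had the highest level at 99.4 ± 6.18 CPM per kb, followed by SOM at 63.9 ± 11.9, PIF1 at 37.8 ± 1.88 and HY5 at 19.9 ± 0.884 (SD, n = 3). PHYB (15.97), COP1 (14.9) and PIF3 (14) came next, and each of these overlapped its neighbour. PIF5 at 1.39 ± 0.307 and PIF4 at 0.618 ± 0.120 CPM per kb were the lowest. In the other groups SOM headed the order, at 114 ± 3.94 in atcyp18-1 normal, 90.2 ± 14.9 in WT heat and 109 ± 2.58 in atcyp18-1 heat, above PHYA at 98.1 ± 3.33, 61.1 ± 1.10 and 54.8 ± 0.855 CPM per kb. PHYB stood below COP1 and PIF3 without overlap in both heated groups, at 6.55 ± 0.244 and 8.73 ± 0.985, and in atcyp18-1 normal it overlapped PIF3 and stood above COP1.

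The genes most like each of the 9 were sought by Pearson r of log2 CPM over the 12 libraries, among tested genes whose mean level reached 5 CPM, as a description in which the libraries share their group differences. For PHYA these were AT5G64320 and AT1G80150 (r = 0.99 each), and among the 9 genes PHYB was closest (0.91). For PHYB they were AT5G20660 and AT3G62630 (0.98 each), for PIF1 CIPK12 (0.96) and LIF2 (0.94), and for PIF3 UMAMIT25 (0.95) and HDA05 (0.93). PIF4 was closest to AT3G10200 and AT2G20390 (0.94 each) and PIF5 to CYS2 (0.96) and HOT5 (0.95). HY5 paired with BETA-OHASE 1 (0.95) and CGLD27 (0.94), COP1 with GSNAP and LigB (0.95 each), and SOM with GLYI8 and MPL1 (0.95 each). Only the highest signed r was taken, so inverse relations were not sought. For COP1 the highest r among the other 8 genes was -0.06, with SOM, so its r with each of them was negative.

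Around these genes, 66 further genes of light and germination control passed the filter of 72 that matched the reference. In WT heat 12 rose and 31 fell, with a median log2 change of -0.22, and in mutant heat 16 rose and 23 fell, with a median of -0.15, beside a median of 0 over all tested genes in both. Over all tested genes 25.0% rose and 25.1% fell in WT heat and 22.9% rose and 23.4% fell in mutant heat, the shares against which each list count below stands. Other photoreceptors and phytochrome partners fell in 9 of 14 cases in WT heat and in 8 of 14 in mutant heat, and rose in 2 in each. The 3 remaining phytochromes, named here after their values were seen, fell as PHYA and PHYB did: PHYC by 0.80 and 0.64, PHYD by 0.26 and 0.55 and PHYE by 0.71 and 0.74 on the log2 scale in WT and mutant. HMR, a phytochrome signalling and plastid transcription protein, fell in WT heat by 1.23 ± 0.09, and FAR1, a transcription factor needed for phyA responses, by 1.00 ± 0.10 (SE, log2; edgeR adjusted p = 5.76e-10 and 7.64e-08). COP1 complex partners fell in 6 of 8 cases in WT heat and rose in 0. In mutant heat 4 fell, among them DDB1A, a part of the ligase scaffold, by 0.95 ± 0.09 (adjusted p = 5.02e-08), and 1 rose. Of the HY5 partners, 3 of 6 fell and 1 rose in WT heat, 2 fell and 1 rose in mutant heat, and BBX21 fell in the mutant by 1.27 ± 0.17 (adjusted p = 4.19e-06).

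Of 20 seed genes around PIF1 and SOM, 6 rose and 8 fell in WT heat and 7 rose and 6 fell in mutant heat. GA3OX2, which makes active gibberellin, rose by 0.89 ± 0.16 in WT heat (edgeR adjusted p = 8e-05), and RVE1, a MYB-type factor that represses germination, rose by 0.76 ± 0.31 in WT (adjusted p = 0.0444) and 1.79 ± 0.25 in the mutant (adjusted p = 5.69e-06). NCED9, a gene of abscisic acid synthesis, rose in mutant heat by 1.33 ± 0.27 (adjusted p = 0.000315), and TZF5, which encodes a zinc finger protein related to SOM, fell there by 0.98 ± 0.18 (adjusted p = 0.000145). Among 10 tested downstream light and PIF target genes, 2 rose and 4 fell in WT heat and 4 rose and 2 fell in mutant heat. ELIP1, a light stress protein of the plastid, rose by 0.77 ± 0.17 and 1.57 ± 0.16, and GUN5, a subunit of magnesium chelatase, fell in WT by 1.04 ± 0.15. The 8 tested PIF and HLH relatives gave 1 rise and 1 fall in each genotype.

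Between the genotypes the same lists gave 9 higher and 9 lower genes of 66 without heat, median 0.02, and 13 higher and 3 lower in heat, median 0.05. Of all tested genes 11.2% were higher and 12.2% lower without heat and 8.17% higher and 8.49% lower in heat. The first count was 10 in place of 18 without the third unheated mutant library. CHS, the entry enzyme of flavonoid synthesis and a target of HY5, was higher by 1.53 ± 0.12 without heat and 1.81 ± 0.13 in heat (SE, log2; edgeR adjusted p = 3.26e-08 and 5.24e-09). TZF5 (0.88 ± 0.17) and BBX24, a B-box partner of HY5 (0.73 ± 0.10), were the next largest differences upwards without heat among genes reaching 5 CPM, and RVE1 (1.76 ± 0.25) and NCED9 (1.48 ± 0.27) in heat. Among called genes reaching 5 CPM, the largest differences downwards without heat were HMR (-0.65 ± 0.09), PORC, an enzyme of chlorophyll synthesis (-0.49 ± 0.13), and the blue light receptor PHOT1 (-0.45 ± 0.08). In heat those reaching 5 CPM were the histone demethylase gene JMJ22 (-0.36 ± 0.08) and SPT, a bHLH factor of dormancy (-0.31 ± 0.08). Below that level, and named after their values were seen, FHL, which brings phyA into the nucleus, was lower by larger amounts in both conditions (-0.81 ± 0.23 and -0.91 ± 0.25; edgeR adjusted p = 0.013 and 0.0176), and GA3OX1, a gibberellin synthesis gene, was lower without heat (-0.68 ± 0.23; adjusted p = 0.0338). Downstream light and PIF target genes were higher in the heated mutant in 5 of 10 cases and lower in 0, and in the unheated mutant 2 were higher and 1 lower. Seed genes around PIF1 and SOM were higher in 4 and lower in 2 of 20 without heat, and higher in 3 and lower in 1 in heat. These differences stood beside the higher seed markers of the mutant given above.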

How the data were processed

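The authors deposited raw read counts per transcript in 12 libraries, with gene symbols, and the submitters' processing notes name HTSeq and DESeq. Which build, aligner and splicing caller were used is not given in the sources used here. No count was 0 and 54256 cells held 1, so values appear to be reads plus 1. Counts are given per transcript row and reads are shared between rows, so the lowest-numbered annotated transcript stood for each gene (for PIF1 and COP1 the rows differed in total). No strand-specific step is described, so reads of a gene and of one overlapping it, antisense included, cannot be separated. The deposited splicing tables give junction read counts, a scaled intron signal, the ratio of intron to exon reads, and unadjusted p-values per the file headers.

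Counts were tested with edgeR 4.0.16 in R 4.3.3 (TMM, filterByExpr, quasi-likelihood F test, 1 model of 4 group means, Benjamini-Hochberg over 17296 genes), with limma 3.58.1 and DESeq2 1.42.0 as alternatives. On counts simulated for the heated genotypes, with 17296 genes, 53 of 66 genes changed 2-fold were recovered and 41 of 68 changed 1.5-fold. Sequences and positions came from TAIR10.1. The retained introns of the 9 genes matched annotated introns there. The 9 genes and all lists were chosen with earlier results of these data known, and 3 listed genes without a matching symbol were left out (PCH1, PCHL and PIF8). Named from the lists were, per comparison, up to 3 largest rises and 3 largest falls among called genes that averaged 5 CPM or more in one of the compared groups.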

Additional observations from a re-analysis of the deposited data

Results flagged for a closer look

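HMR and PHOT1 were the 2 of 66 tested pathway genes whose heat change differed between the genotypes in edgeR's interaction test. Over all tested genes the share was 1.08%. HMR fell in WT from 90.5, 87.7 and 79.2 to 37.3, 39.6 and 33.2 CPM and in the mutant from 50.2, 61.0 and 52.0 to 39.2, 36.5 and 38.5 CPM, a difference of changes of 0.71 ± 0.13 (SE, log2; adjusted p = 0.015). PHOT1 went in WT from 79.3, 76.0 and 76.9 to 46.8, 50.6 and 50.5 CPM and in the mutant from 57.9, 61.2 and 50.8 to 50.5, 48.8 and 50.5 CPM, a difference of 0.47 ± 0.11 (adjusted p = 0.0481). For both genes the genotypes stood apart without heat and overlapped in heat. Both calls were lost with no filter on low counts, where 0 of the listed genes were called. The same held without unheated WT replicate 1 and without heated mutant replicate 1 or 3. With plain library sizes or limma 1 was called. Only 1 was also called without unheated WT replicate 2 or 3, unheated mutant replicate 3, or heated WT replicate 2 or 3. Without heated WT replicate 1 or heated mutant replicate 2 the count was 5, and with the replicate block 4. Which listed genes made up these counts is not given here. Over all tested genes the calls numbered 187, and 12 to 314 when single libraries were left out.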

How the results depend on the processing

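Of 396 alternative values for the 18 called changes of the 9 genes, 386 kept direction and call and 10 lost the call; the losses concern COP1, PIF3, HY5 and PHYB and stand beside their results. Of 585 values for the 27 changes not called, 552 were alike, 14 passed the test and 19 turned sign, to values from -0.18 to 0.10. The sign turned with plain library sizes for HY5 with heat (-0.18 in WT, -0.045 in the mutant), PHYB between unheated genotypes (-0.050), and PIF1 (-0.075) and PIF3 (-0.060) between heated ones; without a filter for HY5 in WT heat (-0.022); with the highest-total transcript for the same (-0.0083); and with DESeq2's factors or DESeq2 for PIF1 between unheated genotypes (0.00013 and 2.7e-05). Leaving out single libraries gave -0.0092 to 0.044 for HY5 in WT heat, -0.23 to 0.10 for PIF4 in mutant heat, -0.062 to 0.018 for PHYA and -0.045 to 0.018 for PIF1 between unheated genotypes, -0.012 to 0.18 for PIF3 between heated genotypes and -0.0078 to 0.52 for the PIF4 interaction. The cause was not tested.

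For the interaction, DESeq2 and the replicate block each called 1 of the 9 genes in place of 0, and leaving out single libraries 0 to 1. Pathway genes called for the interaction were 1 with plain library sizes, 1 with limma, 0 without a filter, 4 with the replicate block and 0 to 5 without single libraries, in place of 2. Leaving out single libraries gave 10 to 19 pathway genes between unheated genotypes. Same-numbered libraries deviated together with correlations of -0.098 to 0.103, and 5 of 12 correlated best with their own number, so the numbers were not taken as pairs; the replicate block moved no other count of these genes by over 1.5 times. Of the 15 splicing rows, 5 had an authors' p under 0.01, and 6 kept a ratio of at least 1.70 after division by the gene's CPM. For intron rows this division used the scaled intron signal in place of the intron-to-exon ratio. For junction rows it set raw reads against CPM, so differences in library size remain in it. Of the 7 junction rows, 1 (PIF1 in WT) kept it per read of the gene, a scale chosen after seeing the data. Depth limits the values of PIF4, PIF5 and the introns, which rest on few reads.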
